A study of Homo sapiens with 2 samples.

Results

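The 6 genes described here, DUSP1, DUSP4, DUSP5, JUNB, KLF4 and PHLDA1, encode feedback regulators and immediate early transcription factors of mitogen-activated protein kinase (MAPK) signalling. They were taken by name, as 6 of the 1947 genes in the authors' deposited comparison of ebastine with vehicle, and they had been proposed with the values of that comparison in view, so every ratio below is a description without a test. The RNA came from the C4-2 line of human prostate cancer cells, a descendant of LNCaP that grows with little androgen. One library of polyadenylated RNA was made from cells given ebastine, an antihistamine that blocks the histamine H1 receptor, and 1 library from cells given vehicle. The series title gives the histone methyltransferase EZH2 as the drug's target in cancer cells. Both cultures were at passage 10 to 15, in RPMI-1640 with 10% fetal bovine serum, and were replated before the medium was exchanged. The sources used here give neither the dose nor the length of treatment. With 1 library per group there is no replicate check of any difference, and 1 cell line limits the comparison to these cells.

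MAPK pathways relay signals from growth factors and stress through kinase cascades. A ligand activates a receptor tyrosine kinase, RAS proteins activate RAF, MEK and the kinase ERK in turn, and parallel cascades end in the kinases JNK and p38. Active ERK switches on immediate early genes, whose transcripts appear within minutes of a stimulus and need no new protein synthesis, and it also raises the phosphatases that switch the kinases off again. DUSP1, DUSP4 and DUSP5 are such phosphatases. In epithelial cancers these transcripts are often read as an output of the pathway.

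Of the 6 genes, 3 were higher and 3 were lower in the ebastine library, beside 43.0% higher and 57.0% lower among 1768 genes of the same table. PHLDA1, KLF4 and the phosphatase DUSP4 were lower, and JUNB and the phosphatases DUSP1 and DUSP5 were higher. The levels are FPKM, fragments scaled to transcript length and to the mapped fragments of a library, as the authors' Cuffdiff gave them. Ratios are log2((FPKM in ebastine + 1)/(FPKM in vehicle + 1)), which understates the change of low genes. All 6 genes averaged at least 1 FPKM over both libraries, and the 1768 genes of the table that did so serve as the background.

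**Figure D1:**
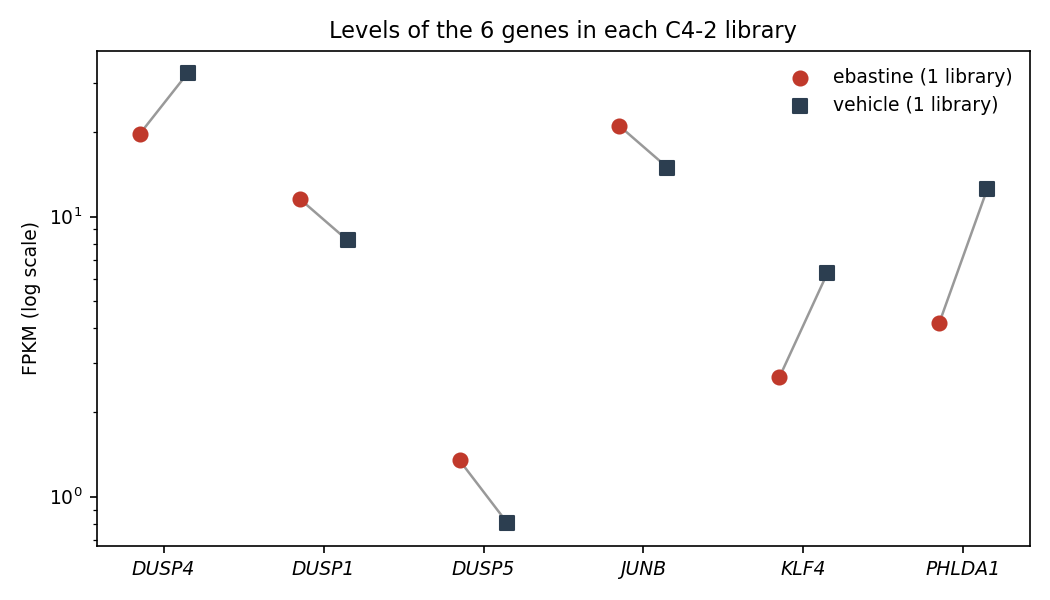
FPKM (log axis) of the 6 genes, with the ebastine library (circles) left of the vehicle library (squares); each point is 1 library and the lines join the values of a gene. DUSP4, KLF4 and PHLDA1 lie lower in ebastine and DUSP1, DUSP5 and JUNB lie higher, and JUNB, at 21.1 FPKM, is the highest of the 6 in ebastine where DUSP4, at 32.5 FPKM, is the highest in vehicle.

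DUSP4 (chromosome 8, 29190579 to 29208267 in hg19), a nuclear phosphatase that acts on ERK and JNK, had 19.7 FPKM in the ebastine library and 32.5 FPKM in the vehicle library. The ratio was -0.69 on the log2 scale, 1.62-fold lower with ebastine. DUSP1 (chromosome 5, 172195093 to 172198203), a nuclear phosphatase of p38, JNK and ERK, had 11.6 FPKM in ebastine and 8.23 FPKM in vehicle, a log2 ratio of 0.45 or 1.36-fold higher. DUSP5 (chromosome 10, 112257625 to 112271302), a nuclear phosphatase that acts on ERK, had 1.35 FPKM in ebastine and 0.804 FPKM in vehicle, a log2 ratio of 0.38 or 1.30-fold higher. Related phosphatases of the same compartment thus lay on both sides of 0.

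The summed level of DUSP1, DUSP4 and DUSP5 was 32.6 FPKM in ebastine and 41.6 FPKM in vehicle. This difference depends on the scaling. The sum in ebastine came to 41.2 FPKM once its values were rescaled to bring the median ratio of well expressed listed genes close to 0. The listed genes were selected by the authors' p-value, so their median ratio need not be 0. That factor is therefore an alternative and not an estimate of the true scaling. The make-up of the sum can be compared within each library, where the scaling between libraries plays no part. DUSP4 made up 60.4% of the sum in ebastine and 78.3% in vehicle, DUSP1 made up 35.5% in ebastine and 19.8% in vehicle, and DUSP5 made up 4.13% in ebastine and 1.94% in vehicle. DUSP4 stood at 1.70 times the level of DUSP1 in ebastine and at 3.95 times its level in vehicle, so the ratio of these genes differed 2.32-fold between the libraries. DUSP4 was the most abundant of the 3 in each library.

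JUNB (chromosome 19, 12902310 to 12904125), a subunit of the AP-1 transcription factor and a classical immediate early gene, had 21.1 FPKM in ebastine and 15.0 FPKM in vehicle. Its log2 ratio was 0.47, or 1.38-fold higher. KLF4 (chromosome 9, 110247133 to 110252047), a zinc finger transcription factor of the Kruppel-like family that also acts in epithelial differentiation, had 2.67 FPKM in ebastine and 6.29 FPKM in vehicle. Its log2 ratio was -0.99, 1.99-fold lower and just short of 2-fold. JUNB thus stood at 7.89 times the level of KLF4 in ebastine and at 2.38 times its level in vehicle.

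PHLDA1 (chromosome 12, 76419227 to 76425556) encodes a protein with a pleckstrin homology-like domain and is commonly used as a transcript marker of ERK activity. It had 4.18 FPKM in ebastine and 12.6 FPKM in vehicle. Its log2 ratio of -1.39, 2.62-fold lower, was the lowest of the 6, and 11 of the 1768 background genes had a lower one. In the authors' deposited table, without a pseudocount, PHLDA1 was 3.01-fold and KLF4 2.35-fold lower, and DUSP5 was 1.68-fold higher. For DUSP5, the lowest gene of the 6, the pseudocount therefore changes the size more than for DUSP1 and JUNB, which were both 1.41-fold higher in that table.

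At a limit of 1.5-fold, 3 of the 6 genes were lower with ebastine (PHLDA1, KLF4 and DUSP4), beside 18.6% of the background genes, and 0 of 6 were higher, beside 9.67%. At 2-fold, PHLDA1 alone was lower, beside 4.86% of the background genes, and 0 were higher, beside 1.81%. At 1.2-fold, 3 were higher and 3 lower, beside 42.6% and 56.6%. The genes were chosen from this same contrast, so nothing is read from these shares. The median log2 ratio was -0.16 over the 6 genes and -0.32 over the background genes. In the authors' deposited table the q-value was 0.00178 for PHLDA1, KLF4 and DUSP4, 0.0476 for JUNB, 0.0994 for DUSP1 and 0.119 for DUSP5. A q-value under 0.05 was thus listed for 4 of the 6, beside 41.0% of all 1947 genes. That test was made on 1 library per group and compares these libraries, not the treatments.

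**Figure D2:**
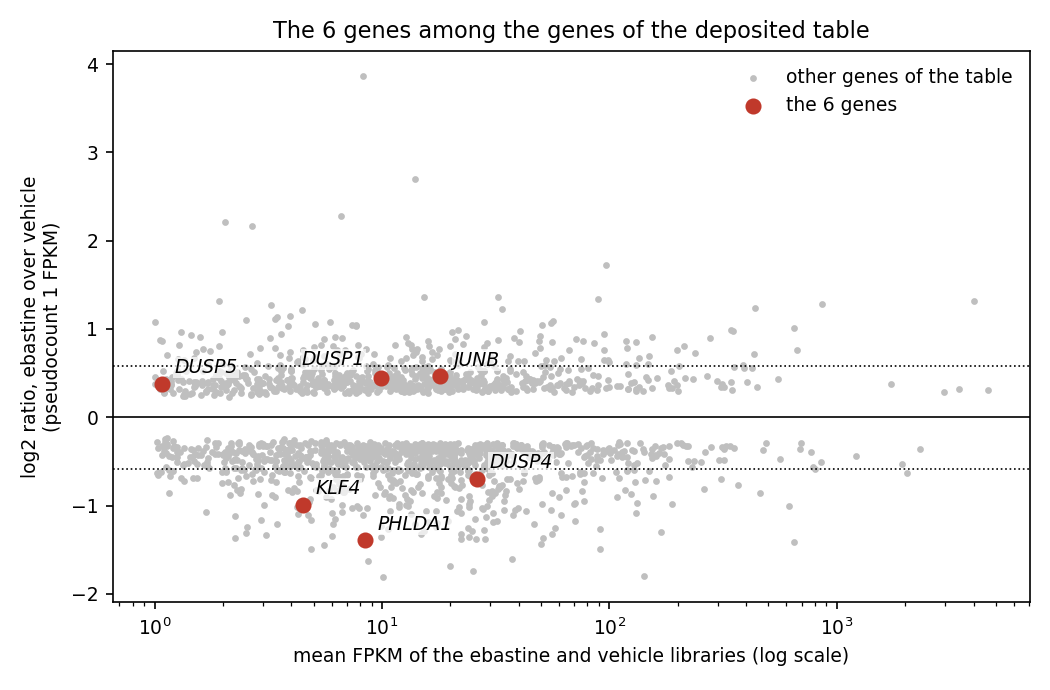
Log2 ratio of ebastine over vehicle (pseudocount 1 FPKM) against the mean FPKM of both libraries (log axis) for the 1768 background genes; red points are the 6 genes and dotted lines mark 1.5-fold. The empty band around 0 comes from the table's limit on the p-value. PHLDA1 (-1.39) and KLF4 (-0.99) lie near the lower edge of the cloud at their level, and DUSP1 (0.45), JUNB (0.47) and DUSP5 (0.38) lie within its upper part.

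The ratios were also computed under other scalings, with factors taken only from the listed genes. These were selected by the authors' p-value, so their median and upper quartile need not match between the libraries. The factors are therefore not estimates of the true scaling. Multiplying the ebastine values by 1.26, a log2 shift of 0.34, sets the median ratio of genes averaging at least 10 FPKM close to 0, called centring here, and matching the upper quartiles multiplies them by 1.15, a shift of 0.21. After centring DUSP4 was at -0.37, or 1.30-fold lower, and no longer past 1.5-fold, while DUSP1 at 0.76 and JUNB at 0.79 were past it. All 6 genes kept their direction under both, which was fixed in advance. Both factors raise the ebastine values, and by less than the smallest drop of the lower genes (DUSP4, -0.69). Over the background genes the counts at 1.5-fold were 171 higher and 328 lower as deposited, 705 and 122 after centring, and 431 and 184 after upper quartile rescaling.

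**Figure D3:**
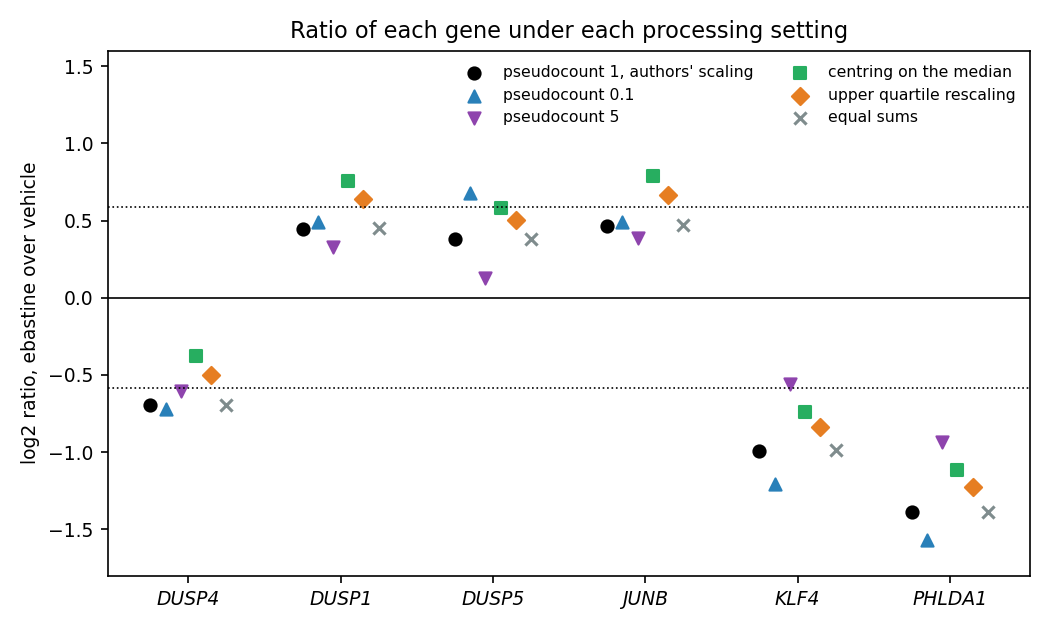
Log2 ratio of ebastine over vehicle of the 6 genes under the values as deposited with a pseudocount of 1 FPKM (black) and 5 alternatives (other colours and marks); dotted lines mark 1.5-fold. Each gene stays on its side of 0 under every setting drawn, which for these ratios follows from how the settings are built. DUSP5 comes closest to 0, at 0.13 with a pseudocount of 5 FPKM. DUSP4 lies inside the lower dotted line after centring (-0.37) and upper quartile rescaling (-0.50).

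Per length, the order of the 6 genes differed between the libraries. In ebastine it ran JUNB, DUSP4, DUSP1, PHLDA1, KLF4 and DUSP5 from high to low, and in vehicle it ran DUSP4, JUNB, PHLDA1, DUSP1, KLF4 and DUSP5. Whether neighbours in these orders differ beyond replicate error cannot be judged from 1 library each. JUNB stood at 1.07 times the level of DUSP4 in ebastine and at 0.460 times its level in vehicle. DUSP1 stood at 2.77 times the level of PHLDA1 in ebastine and at 0.654 times its level in vehicle. JUNB and DUSP1 kept the same proportion, with JUNB at 1.82 times the level of DUSP1 in each library, and PHLDA1 stood at 1.57 times the level of KLF4 in ebastine and at 2.00 times its level in vehicle. In bulk RNA, fewer cells with a transcript and less of it per cell cannot be told apart.

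Depth is unknown, since the table holds no counts. Multiplying the level by the length of the annotated transcript in kilobases gives a rough relative number of fragments. It came to 3.45 for DUSP5 in ebastine and 2.06 in vehicle, to 5.23 for KLF4 in ebastine and 12.3 in vehicle, and to 24.7 for PHLDA1 in ebastine and 74.4 in vehicle. DUSP4 had the highest number, with 109 in ebastine and 180.1 in vehicle. DUSP5 therefore rests on the fewest fragments of the 6.

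The start regions of DUSP1, JUNB, KLF4 and PHLDA1, all of the 6 genes with a window in the RefSeq table used here, are shown to compare the sites at which MAPK-regulated factors are known to bind. Each is the RefSeq window in build GRCh38.p14 from 250 bases before to 50 bases after the annotated start, written 5′ to 3′ along the gene: DUSP1 at chr5:172771146-172771445 on the minus strand, JUNB at chr19:12791236-12791535 on the plus strand, KLF4 at chr9:107489720-107490019 on the minus strand and PHLDA1 at chr12:76031727-76032026 on the minus strand. Capitals mark exact matches to the core TGACG of the cyclic AMP response element (CRE), the ETS sequence CCGGAA and the TATA box sequence TATAAA, each on either strand.
DUSP1: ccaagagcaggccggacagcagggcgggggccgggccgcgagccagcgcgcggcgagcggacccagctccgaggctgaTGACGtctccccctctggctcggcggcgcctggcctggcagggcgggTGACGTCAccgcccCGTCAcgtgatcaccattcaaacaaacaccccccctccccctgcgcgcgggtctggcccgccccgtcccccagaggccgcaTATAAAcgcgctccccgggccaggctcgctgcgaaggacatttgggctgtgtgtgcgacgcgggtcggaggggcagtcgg
JUNB: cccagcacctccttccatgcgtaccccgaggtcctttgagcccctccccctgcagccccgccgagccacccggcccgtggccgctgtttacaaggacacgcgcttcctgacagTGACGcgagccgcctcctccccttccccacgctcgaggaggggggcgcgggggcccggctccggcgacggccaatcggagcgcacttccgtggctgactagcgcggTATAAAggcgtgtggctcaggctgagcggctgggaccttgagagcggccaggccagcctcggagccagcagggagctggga
KLF4: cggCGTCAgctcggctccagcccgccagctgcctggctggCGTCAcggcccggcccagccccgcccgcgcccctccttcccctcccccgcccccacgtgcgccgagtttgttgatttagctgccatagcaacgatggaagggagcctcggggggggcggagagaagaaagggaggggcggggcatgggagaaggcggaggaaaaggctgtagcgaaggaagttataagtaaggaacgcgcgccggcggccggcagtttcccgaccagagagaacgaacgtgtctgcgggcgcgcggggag
PHLDA1: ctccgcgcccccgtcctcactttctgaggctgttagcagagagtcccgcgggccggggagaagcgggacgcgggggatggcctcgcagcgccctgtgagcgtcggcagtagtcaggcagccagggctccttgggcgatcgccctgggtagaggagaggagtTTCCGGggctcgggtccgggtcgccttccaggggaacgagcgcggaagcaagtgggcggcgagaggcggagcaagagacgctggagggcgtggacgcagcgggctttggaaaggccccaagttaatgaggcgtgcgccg

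The windows of DUSP1 and JUNB, both higher with ebastine, held the exact sequence TATAAA, 30 bases before the start in DUSP1 and 31 in JUNB. Those of KLF4 and PHLDA1, both lower, did not, where 12.0% of the 27305 RefSeq windows of this length hold it. Variant forms of the TATA box were not searched, and the KLF4 window holds the near match TATAAG, so the genes are not split by having a TATA box. DUSP1 had 4 matches to the CRE core, of which a pair overlaps in the full palindrome TGACGTCA that starts 125 bases before the gene's start and occurs in 1.98% of windows. JUNB had 1 match to the core, 137 bases before the start, KLF4 had 2, and PHLDA1 had 0, where 25.0% of windows hold at least 1. PHLDA1 had the single match to the ETS sequence CCGGAA, 89 bases before the start, a match found in 17.6% of windows. Other forms of the ETS site were not searched, and the JUNB window holds the near match TTCCGT, so the genes are not split by having an ETS site. The AP-1 site TGANTCA, in 7.76% of windows, and the CArG box of serum response factor, in 1.29%, were in none of the 4 windows, which says only that these letters are not in these 300 bases. The GC box GGGCGG, in 44.6% of windows, overlaps none of the marked cores, and had 4 matches each in DUSP1 and KLF4, 1 in PHLDA1 and 0 in JUNB. A match of letters is not a measured binding site, and 4 windows do not allow a comparison of higher with lower genes. GC content of the windows was 73.3% for DUSP1, 71.0% for JUNB, 69.0% for KLF4 and 69.3% for PHLDA1, where the median of all windows was 58.3%.

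The 6 genes had few exons and short spans, but not all had short transcripts. In the GENCODE 29 transcript nearest in span to the deposited locus they had 1 to 4 exons, with JUNB in 1 exon, PHLDA1 in 2 and KLF4 and the phosphatases in 4 each, where the median of the 1729 other genes of the table with a coding transcript was 9 exons. These transcripts spanned 1.82 kb (JUNB) to 17.6 kb (DUSP4) of the genome, where the median span of the other genes was 28.7 kb. Their length without introns was 5537 bases in DUSP4 and 5913 in PHLDA1, above the median of 2948 for the other genes. In the rest it was 1820 (JUNB) to 2557 bases (DUSP5), below that median. How many other genes have as few exons was not counted. The pentamer ATTTA, the core of the AU-rich elements known to shorten the life of early response transcripts, occurred 14 times in the 3′ untranslated region of PHLDA1, 6 times in DUSP4, 4 times in DUSP1, 2 times each in JUNB and KLF4 and 0 times in DUSP5. The median of the other genes was 2. Per kilobase the density was 5.95 in DUSP1, 4.0 in JUNB and 0 in DUSP5, all higher with ebastine, and 3.0 in PHLDA1, 2.23 in KLF4 and 1.51 in DUSP4, all lower, beside a median of 1.64. The genes that were higher thus held both the highest and the lowest density of the 6.

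The transcripts of these genes share few stretches with annotated transcripts of other genes. No 50-base stretch of the DUSP1, DUSP4, DUSP5, JUNB and KLF4 transcripts occurs in a transcript of another gene, so the related phosphatases share none. In PHLDA1 0.682% of such stretches do. Matches to the opposite strand were not searched and the read length was not used, so the placing of reads was not tested. The strand setting of the counting is not given in the sources used here. JUNB overlaps HOOK2 on the opposite strand, and DUSP1 and PHLDA1 overlap antisense RNA genes. Where they overlap, reads of these partners cannot be told apart from theirs without strand. None of the partners is among the listed genes. Of the listed genes within 100 kb, chosen by position after the values were seen, RNASEH2A, 13.3 kb from JUNB, had 70.7 FPKM in ebastine and 114 FPKM in vehicle. NEURL1B, 76.6 kb from DUSP1, had 3.48 FPKM in ebastine and 6.99 FPKM in vehicle. MAST1 and SYCE2, 45.1 and 97.8 kb from JUNB, were at log2 ratios of -0.50 and -1.09. SMC3, 56.1 kb from DUSP5, was at -0.33. NAP1L1, 13.1 kb from PHLDA1, had 469 FPKM in ebastine and 650.0 FPKM in vehicle. Every listed gene within 100 kb was thus lower, near JUNB, DUSP1 and DUSP5, which were higher, and near PHLDA1, which was lower. Of the background genes 57.0% were lower, and nothing is read from the directions of these neighbours.

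Other genes of the pathway were read from 13 lists drawn up with earlier results of these data known. Together they hold 234 genes, of which 33, or 14.1%, are in the table, which itself holds 14.2% of the genes the authors tested; how many of the 234 were tested is not known. Without the 6 genes, 27 of 228 were listed, 10 higher and 17 lower with ebastine, beside 43.0% higher and 57.0% lower among the background genes. The median log2 ratio was -0.37 over the 25 that averaged at least 1 FPKM, beside -0.32 for the background. Of the 25, 1 was at least 1.5-fold higher, beside 9.67% of the background genes, and 4 were at least 1.5-fold lower, beside 18.6%.

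**Figure D4:**
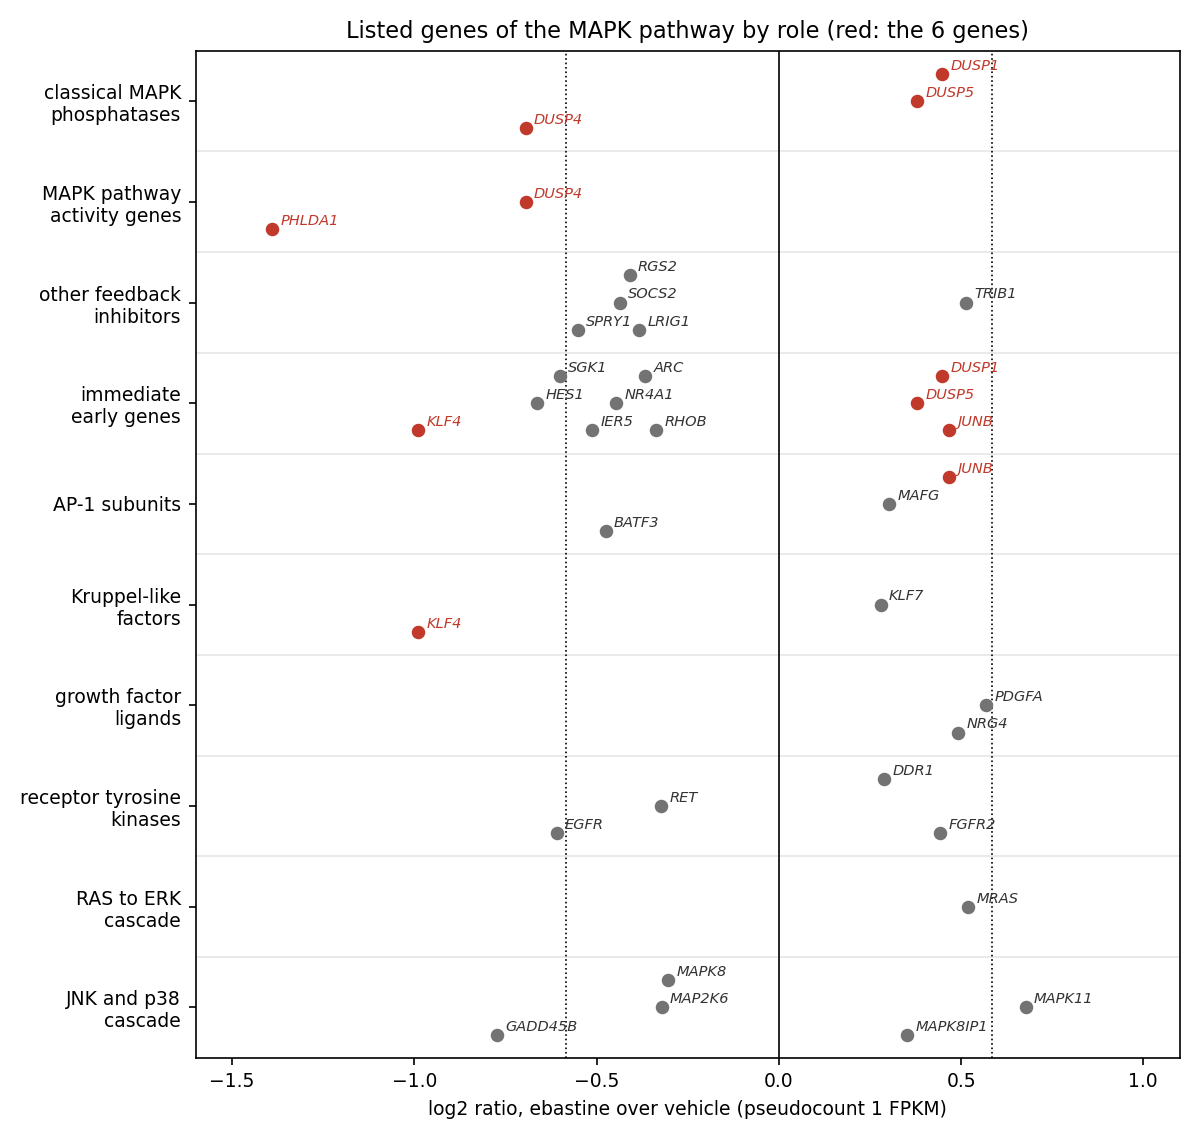
Log2 ratio of ebastine over vehicle (pseudocount 1 FPKM) for every listed gene on 10 of the 13 pathway lists, grouped by role; red marks the 6 genes, a gene on 2 lists is drawn in both, and dotted lines mark 1.5-fold. The immediate early genes other than JUNB, DUSP1 and DUSP5 lie left of 0, with KLF4 at -0.99 the lowest of them.

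Among 40 immediate early genes 10 were listed, 3 higher (JUNB, DUSP1 and DUSP5) and 7 lower. The 6 listed besides the genes described above were all lower, beside 57.0% of the background genes, 2 of them by at least 1.5-fold, beside 18.6%. HES1, a transcriptional repressor downstream of Notch, had 13.8 FPKM in ebastine and 22.4 FPKM in vehicle (log2 ratio -0.66). The kinase gene SGK1 had 1.70 FPKM in ebastine and 3.10 FPKM in vehicle (-0.60). IER5 had 5.52 FPKM in ebastine and 8.30 FPKM in vehicle (-0.51), and the nuclear receptor NR4A1 had 9.76 FPKM in ebastine and 13.7 FPKM in vehicle (-0.45). The remaining 2 were at -0.37 and -0.34. The authors' deposited table gives q-values under 0.05 for HES1, SGK1 and IER5, beside 41.0% of all its genes, and larger ones for the other 3. The direction of JUNB, DUSP1 and DUSP5 was thus the opposite of that of the other 7 listed genes of this class. FOS, JUN, EGR1 and MYC are outside the table and were not analysed here.

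AP-1 subunits and Kruppel-like factors held few other listed genes. Of 17 AP-1 and related leucine zipper genes 3 were listed. Besides JUNB, MAFG was higher, at 8.50 FPKM in ebastine and 6.70 FPKM in vehicle (log2 ratio 0.30). BATF3 was lower, at 2.40 FPKM in ebastine and 3.72 FPKM in vehicle (-0.48). Of 17 Kruppel-like factors the only other listed one was KLF7, which was higher where KLF4 was lower, at 2.50 FPKM in ebastine and 1.89 FPKM in vehicle (0.28). Of the PHLDA family PHLDA1 was the 1 listed of 3.

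Of 10 classical MAPK phosphatases only DUSP1, DUSP4 and DUSP5 were listed, and of 13 atypical dual-specificity phosphatases DUSP23 was listed, at 39.7 FPKM in ebastine and 52.3 FPKM in vehicle (log2 ratio -0.39). Of the 10 genes used to score MAPK pathway activity, DUSP4 and PHLDA1 were listed, and both were lower. Both are among the 6 genes described above, so this list adds no further gene. The other 8 of them, among them DUSP6, SPRY2, SPRY4 and CCND1, are outside the table. Of 20 other feedback inhibitors of receptor and RAS signalling 5 were listed, 4 lower and 1 higher, beside 57.0% lower and 43.0% higher among the background genes. With the pseudocount none of the 5 was past 1.5-fold, beside 18.6% lower and 9.67% higher, but in the authors' deposited table, which has none, SPRY1 was 1.58-fold lower and TRIB1 1.54-fold higher. The Sprouty gene SPRY1 had 3.88 FPKM in ebastine and 6.16 FPKM in vehicle (-0.55) with a q-value of 0.0155 in the authors' deposited table. SOCS2, RGS2 and LRIG1 were at -0.44, -0.41 and -0.38, and the pseudokinase gene TRIB1 was higher, at 5.77 FPKM in ebastine and 3.74 FPKM in vehicle (0.51). The q-values of these 4 were above 0.05 in the authors' deposited table.

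Upstream of the 6 genes, the epidermal growth factor receptor EGFR was lower in the ebastine library. It had 18.8 FPKM in ebastine and 29.1 FPKM in vehicle, a log2 ratio of -0.61, with a q-value of 0.00178 in the authors' deposited table. Of 22 receptor tyrosine kinases 4 were listed. FGFR2 was higher, at 2.36 FPKM in ebastine and 1.47 FPKM in vehicle (0.44), and RET was lower, at 0.634 FPKM in ebastine and 1.04 FPKM in vehicle (-0.32). DDR1, at 0.29, is listed on an alternative haplotype of chromosome 6. Of 26 ligands 2 were listed and both were higher, beside 43.0% of the background genes. PDGFA had 11.6 FPKM in ebastine and 7.51 FPKM in vehicle (0.57). NRG4 had 1.06 FPKM in ebastine and 0.465 FPKM in vehicle (0.49), and its mean of 0.763 FPKM leaves it outside the background.

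Of 29 genes from the RAS adaptors to the ERK substrates 1 was listed, or 3.45%, beside the 14.2% of tested genes that the table holds. It was the RAS-related GTPase MRAS, at 1.80 FPKM in ebastine and 0.954 FPKM in vehicle (log2 ratio 0.52). The listed share was 25% for the other feedback inhibitors, 18.2% for the receptor tyrosine kinases and 7.69% for the ligands. How many genes of each list were tested is not known, so nothing is read from these shares. Of 22 transcription factors that take MAPK input 0 were listed. Of 30 genes of the JNK and p38 cascades 5 were listed, or 16.7%, 2 higher and 3 lower. MAPK11, which encodes a p38 isoform, had 16.0 FPKM in ebastine and 9.61 FPKM in vehicle (0.68). GADD45B, a stress-induced regulator of these cascades, had 4.74 FPKM in ebastine and 8.80 FPKM in vehicle (-0.77). MAPK8IP1, a JNK scaffold, was at 0.35, and MAP2K6 and MAPK8, a p38 activator and a JNK, were at -0.32 and -0.30, although MAPK8 turned to the other side of 0 after centring. In the authors' deposited table PDGFA, MRAS, MAPK11 and GADD45B had q-values under 0.05, and MAFG, BATF3, KLF7, DUSP23, FGFR2, RET, DDR1, NRG4, MAPK8IP1, MAP2K6 and MAPK8 did not.

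The genes with the most similar pair of levels were found by distance over log2(FPKM + 1) in both libraries, so likeness rests on 2 values per gene. For JUNB this was MMAB, with 21.09 FPKM in ebastine and 15.01 FPKM in vehicle, at a distance of 0.0034. For DUSP1 it was PLBD2, with 11.4 FPKM in ebastine and 8.49 FPKM in vehicle (distance 0.043), and for DUSP4 it was FANCG, with 19.8 FPKM in ebastine and 31.5 FPKM in vehicle (0.043). For DUSP5 it was TINAGL1 (0.028), and for KLF4 it was FAM72B, with 2.64 FPKM in ebastine and 6.81 FPKM in vehicle (0.10). PHLDA1 had the most distant nearest gene of the 6, PHGR1, with 3.74 FPKM in ebastine and 13.6 FPKM in vehicle (0.17).

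The label of the cells was checked on markers. Of 14 prostate luminal markers 7 were listed, with a summed level of 3350 FPKM in ebastine and 4051 FPKM in vehicle, 4 of them higher and 3 lower. KLK3, which encodes prostate-specific antigen, was the most abundant, at 1599 FPKM in ebastine and 2476 FPKM in vehicle (log2 ratio -0.63), and KLK2 was at -0.77 and TMPRSS2 at -0.33, although TMPRSS2 turned to the other side of 0 after centring. ACPP, FOLH1, STEAP2 and STEAP1 were higher, at 1.03, 0.76, 0.64 and 0.37, with FOLH1, the prostate-specific membrane antigen gene, at 840 FPKM in ebastine and 495 FPKM in vehicle. Few markers of other cells were in the table, which holds 0 of 10 for basal or squamous epithelium, 0 of 10 for fibroblasts or endothelium and 1 of 10 for leukocytes, which was CD4 at 0.693 FPKM in ebastine and 0.400 FPKM in vehicle. Genes outside the table have no value here, so other markers could not be checked.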

How the data were processed

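The authors' deposited table is a Cuffdiff gene-level comparison, per the file headers, with FPKM values for 1 ebastine and 1 vehicle library, and with the authors' own log2 fold change (ebastine over vehicle), their test score (not used here), p-value and q-value. The submitters' processing notes name TopHat2, Cuffdiff and hg19, with no versions. Gene models, strand setting and scaling: not given in the sources used here. All 1947 genes have a p-value of at most 0.0499. The q-values fit 13714 tested genes, so a gene outside the table was untested or had a larger p-value, and the filter removes small ratios.

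Ratios were computed on log2(FPKM + 1), and counts cover genes averaging at least 1 FPKM, in Python 3.11.15 with pandas 2.3.3, after a test on simulated data. A gene counts as higher or lower at 1.5-fold. No test was possible with 1 library per group. Depth is unknown, so no counting interval is given. Locus starts, which count from 0 in the file, were converted. Transcripts came from GENCODE 29 (GRCh38) and matched 89.1% of the genes. Promoter windows came from RefSeq (GRCh38.p14). The members and lists were chosen with earlier results of these data known, and 1 gene is not reported here. The rule for named genes took the 6 genes, up to 8 listed genes per pathway list by size of the ratio and the nearest gene to each member in level. Alternatives were pseudocounts of 0.1 and 5 FPKM, centring, upper quartile rescaling, equal sums, limits of 1.2-fold and 2-fold, other minimum means and the authors' q-value under 0.05.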

Additional observations from a re-analysis of the deposited data

How the results depend on the processing

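All 30 ratios of the 6 genes under 5 alternatives kept their direction, which follows from how the alternatives are built. A pseudocount cannot turn a ratio, and each rescaling raises the ebastine values by less than the lower genes were lowered. With a pseudocount of 0.1 FPKM the log2 ratios were 0.49 for DUSP1, -0.72 for DUSP4, 0.68 for DUSP5, 0.49 for JUNB, -1.20 for KLF4 and -1.57 for PHLDA1. With a pseudocount of 5 FPKM they were 0.33 for DUSP1, -0.60 for DUSP4, 0.13 for DUSP5, 0.38 for JUNB, -0.56 for KLF4 and -0.94 for PHLDA1. After centring they were 0.76 for DUSP1, -0.37 for DUSP4, 0.58 for DUSP5, 0.79 for JUNB, -0.74 for KLF4 and -1.11 for PHLDA1. After upper quartile rescaling they were 0.64 for DUSP1, -0.50 for DUSP4, 0.50 for DUSP5, 0.66 for JUNB, -0.84 for KLF4 and -1.22 for PHLDA1. Rescaling to equal sums, a factor of 1.001, left all 6 as they were to 2 decimals.

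The count of the 6 genes at least 1.5-fold higher was 0, and became 1 (DUSP5) with a pseudocount of 0.1, 2 (DUSP1 and JUNB) after centring and after upper quartile rescaling, and 3 at a limit of 1.2-fold. The count of those lower was 3, and became 2 after centring and after upper quartile rescaling, both without DUSP4, 2 with a pseudocount of 5, without KLF4 at 1.47-fold, and 1 at a limit of 2-fold. Of the 1768 background genes, 171 were higher, against 263 and 84 with pseudocounts of 0.1 and 5, 705 after centring, 431 after upper quartile rescaling, 32 at 2-fold and 754 at 1.2-fold. Lower were 328, against 432 and 179 with pseudocounts of 0.1 and 5, 122 after centring, 184 after upper quartile rescaling, 86 at 2-fold and 1001 at 1.2-fold. These shifts follow from how each alternative is built, since a larger pseudocount shrinks and a rescaling shifts every ratio. No paired analysis was possible because each group holds 1 library, and no replicate could be left out. Depth is unknown, which limits DUSP5 most.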
